A study of Mus musculus with 4 samples.

Results

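The 50 genes described here encode the machinery of mitosis: the kinase that starts it with its cyclins and activators, the spindle checkpoint, the kinetochores, the spindle motors, the cytokinesis apparatus and the proteins that compact chromosomes. They were chosen by name, from knowledge of their roles, and form 50 of the 22474 genes tested. All 50 were measured, and each was well above background on all 4 arrays. Regulatory T (Treg) cells were differentiated in culture from cells of C57BL/6 mice, and their RNA was hybridised to 4 one-colour Agilent arrays. There were 2 control arrays of genotype Junbfl/fl and 2 arrays of genotype Junbfl/flCd4-Cre, in which a Cre recombinase under Cd4 regulatory sequences deletes floxed Junb in T cells from the thymus on. Junb encodes JUNB, one of the JUN proteins that form AP-1, a transcription factor induced by T cell stimulation. Both groups carried the floxed alleles, and only the second carried Cre. The starting cells in both were sorted naive CD4+ T cells, low in CD44, high in CD62L and without CD25. They were stimulated for 3 days on plate-bound anti-CD3 with anti-CD28, with TGF-β1 and with antibodies that block IFN-γ and IL-4. No age or sex is given in the labels. Nothing in the labels ties the arrays of a genotype to separate mice or cultures. The p-values therefore measure array-to-array spread, and this spread may be technical only. One label, that of RNA extraction, names the colon as the source, whereas the others name cultured Treg cells. The design text states the purpose of the arrays as a genome-wide description of these Treg cells.

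Naive T cells are quiescent, and signals through the T cell receptor and CD28 drive them into rapid division within days. Mitosis begins when CDK1, bound to cyclin B, is freed of inhibitory phosphate by CDC25 phosphatases. Kinetochores then attach chromosomes to the spindle, the checkpoint holds back the anaphase-promoting complex until every attachment is made, and this complex, with CDC20, marks cyclin B and securin for destruction. Transcripts of most of these genes peak in G2 and M, through binding of the MuvB complex with B-MYB and FOXM1 at a promoter element called the cell cycle genes homology region (CHR). In quiescent cells the DREAM complex represses the same promoters. The level of these transcripts in a culture therefore depends on how many of its cells are in G2 or M. In RNA from a whole culture, fewer cells in mitosis and less of each RNA per cell cannot be told apart.

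The 4 promoters printed next belong to the members with the smallest p-values in the comparison of genotypes, and show the promoter elements that most of these genes share. Each runs from 250 bases before the gene's start to 50 after it, 5′ to 3′ on the gene's strand, from RefSeq on GRCm38.p6. Capitals mark every CHR motif (TTTGAA or TTCGAA) and every CCAAT box (CCAAT, the site of NF-Y), on either strand, so that TTCAAA and ATTGG are the same motifs read from the other strand.
Ect2: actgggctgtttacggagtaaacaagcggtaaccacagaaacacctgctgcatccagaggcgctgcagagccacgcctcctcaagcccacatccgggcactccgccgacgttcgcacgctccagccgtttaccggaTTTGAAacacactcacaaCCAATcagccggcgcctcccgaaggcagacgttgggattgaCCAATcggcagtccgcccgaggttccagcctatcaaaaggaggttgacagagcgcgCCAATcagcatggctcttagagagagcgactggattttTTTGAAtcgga
Spc25: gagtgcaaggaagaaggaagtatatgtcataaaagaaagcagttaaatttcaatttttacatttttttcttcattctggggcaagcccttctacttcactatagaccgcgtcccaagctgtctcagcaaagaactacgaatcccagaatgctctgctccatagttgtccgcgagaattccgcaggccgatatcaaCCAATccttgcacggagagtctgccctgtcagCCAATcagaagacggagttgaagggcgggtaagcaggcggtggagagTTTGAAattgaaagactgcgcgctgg
Kif11: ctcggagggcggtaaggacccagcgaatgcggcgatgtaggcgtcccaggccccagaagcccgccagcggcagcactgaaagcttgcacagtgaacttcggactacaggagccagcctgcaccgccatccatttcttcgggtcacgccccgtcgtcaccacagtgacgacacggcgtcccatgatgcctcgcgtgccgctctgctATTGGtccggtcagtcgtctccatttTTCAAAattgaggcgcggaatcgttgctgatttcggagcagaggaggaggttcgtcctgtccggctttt
Top2a: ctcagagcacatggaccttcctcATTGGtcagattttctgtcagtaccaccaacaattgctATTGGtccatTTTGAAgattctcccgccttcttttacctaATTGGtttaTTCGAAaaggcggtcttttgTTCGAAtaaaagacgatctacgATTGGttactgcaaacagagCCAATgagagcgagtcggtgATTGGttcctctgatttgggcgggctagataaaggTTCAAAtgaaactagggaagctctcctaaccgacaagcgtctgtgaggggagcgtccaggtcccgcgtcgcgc
The Ect2 promoter lies at chr3:27153829-27154128 (minus strand), that of Spc25 at chr2:69206164-69206463 (minus strand), that of Kif11 at chr19:37376132-37376431 (plus strand) and that of Top2a at chr11:99024140-99024439 (minus strand). Kif11 holds 1 CCAAT box that begins 45 bases before the start and 1 CHR motif that begins 19 bases before it. Top2a, which encodes the topoisomerase that untangles sister chromatids, holds 6 CCAAT boxes and 4 CHR motifs, the last of which begins 23 bases before the start. Spc25 has its CHR motif 24 bases after the start, downstream of 2 CCAAT boxes. Ect2 has CHR motifs on both sides of its start and 3 CCAAT boxes.

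The promoter table matched 41 of the 50 genes, by symbol. A CHR motif was in 31 of these 41 promoters (75.6%), against 15.2% of the promoters of 12580 tested genes in the table. A CCAAT box was in 73.2%, against 39.2%, and both motifs were in 65.9%, against 6.54%. TTTGAA alone was in 70.7% and TTCGAA alone in 9.76%, against 13.4% and 1.96%. With the CHR motif required to lie between 60 bases before and 30 after the start, a window chosen after seeing the data, the shares were 53.7% and 3.39%. Of 79 other mitosis genes 64 had a promoter in the table, with a CHR motif in 59.4%, a CCAAT box in 65.6% and both in 42.2%. Among 41 S phase genes, 33 had a promoter in the table, and 18.2% of these held a CHR motif while 63.6% held a CCAAT box. Matches of the 2 motifs may share letters, and a match describes the letters only. Within the list the difference between genotypes was close with and without the motif: its median log2 difference was -1.57 for the 31 with a CHR motif and -1.53 for the 10 without.

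Signals were compared after each array was scaled to the 75th percentile of its own probes, so a scaled signal of 10 is 10 times that percentile. Differences are log2 values, the mean of the arrays labelled Junb-deficient minus the mean of the controls, given with the standard error (SE) of limma's fit. Transcripts of 48 of the 50 genes were lower on the arrays labelled Junb-deficient. The median difference was -1.56, a 2.94-fold lower signal, and the middle of the list was narrow, from -1.67 at the lower quartile to -1.40 at the upper. The range ran from -2.11 for Ccna2 to 0.42 for Smc4, and 45 genes were lower by more than 2-fold. In limma's fit with Benjamini-Hochberg adjustment over all genes, at an adjusted p under 0.05, 4 of the 50 fell (Ect2, Spc25, Kif11 and Top2a), where 1.43% of all genes fell. No gene of the 50 rose (0), where 7.03% of all genes rose. Nor was any higher at an unadjusted p under 0.05 (0), where 22.3% of all genes were. All genes include some that entered the fit only through the arrays labelled Junb-deficient, where the filter favours a higher value. The 50 include none of these. A further 42 of the 50 had an adjusted p between 0.0503 and 0.0943. Under 0.10, a limit taken after the values were seen, stood 46 of the 50, against 14.6% of all genes. Both arrays labelled Junb-deficient lay below both controls for 46 of the 50, where this held for 38.5% of all genes.

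**Figure D1:**
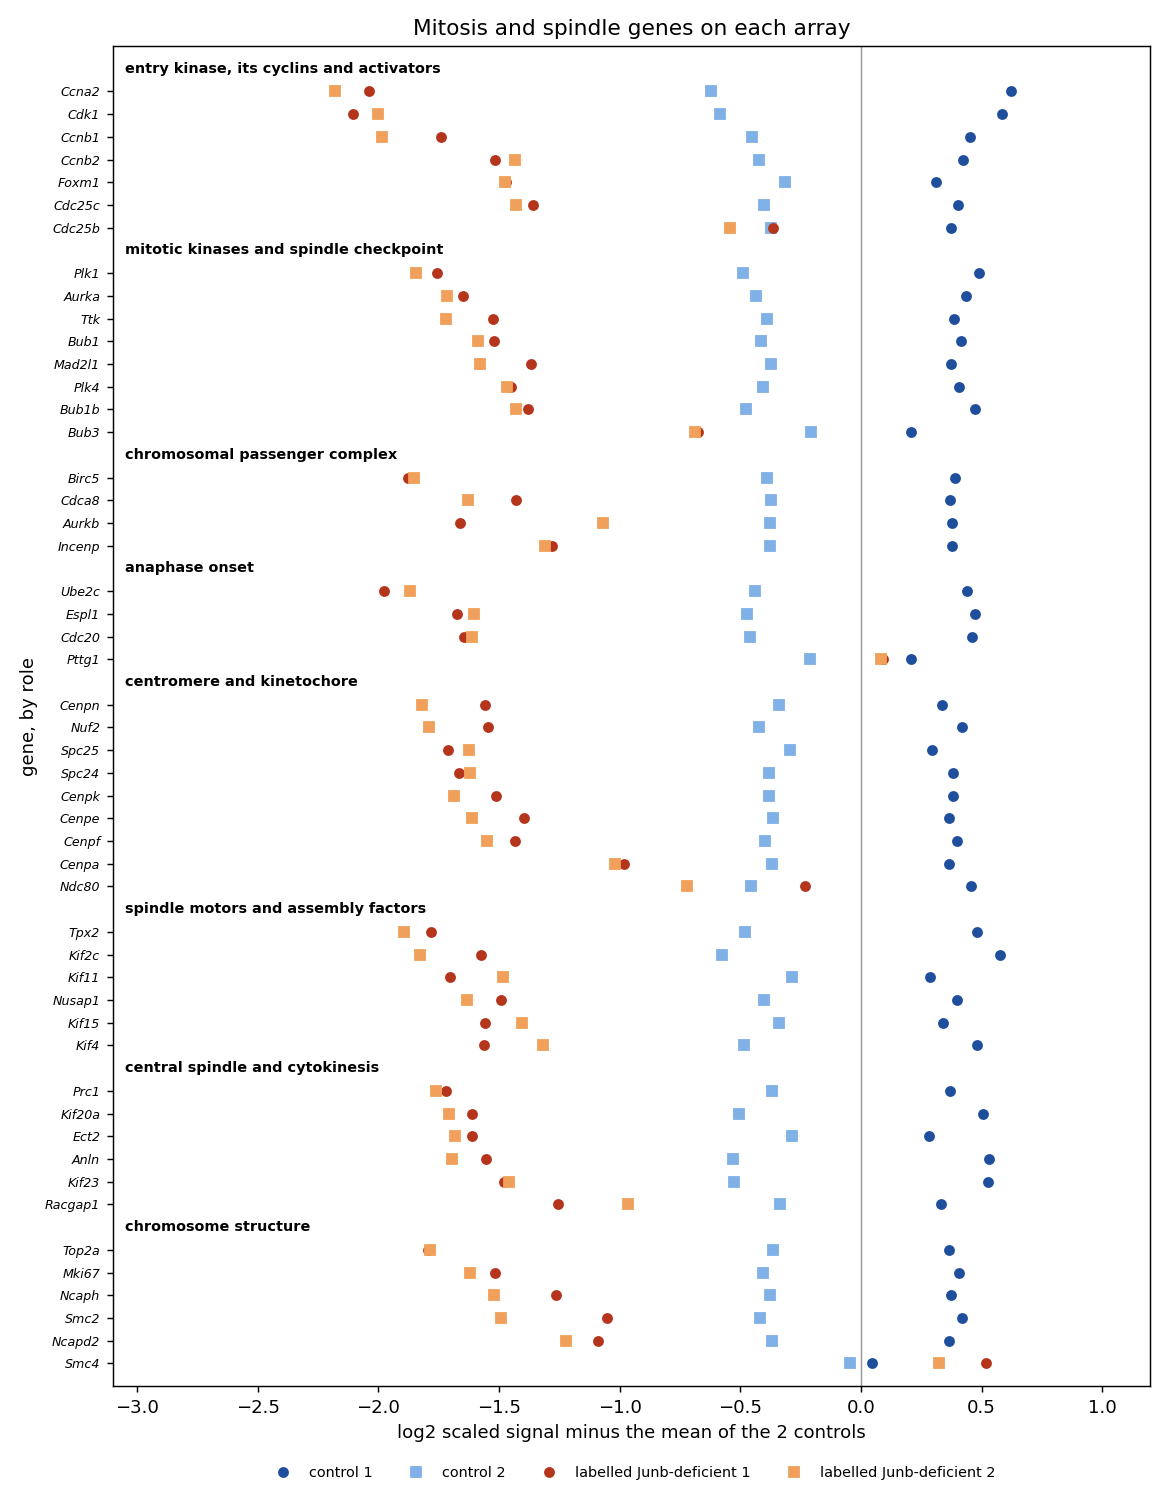
Log2 scaled signal of each of the 50 genes on each of the 4 arrays, minus the mean of the 2 controls (x axis), with genes grouped by role (y axis). Each point is 1 array; for 46 genes both arrays labelled Junb-deficient lie left of both controls, and control 1 lies right of control 2 for all 50.

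Genes as bright as these tended to be lower too, which sets the level they are read against. The median difference was 0.01 over all 22474 genes, but -0.33 over 5003 other genes whose control mean lay between the members' quartiles (scaled signals of 2.61 to 15.3). Of those 5003 genes 77.8% were lower, 66.6% had both arrays labelled Junb-deficient below both controls, and 102 passed the test as lower. Another 49 passed it as higher, and 4.90% were higher at an unadjusted p under 0.05, both smaller shares than over all genes. The members' median of -1.56 lay far down this distribution: 76 of the 5003 genes (1.52%) and 345 of all genes (1.54%) were at or below it. Over the wider range from the dimmest to the brightest member the 10502 other genes had a median of -0.30.

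**Figure D2:**
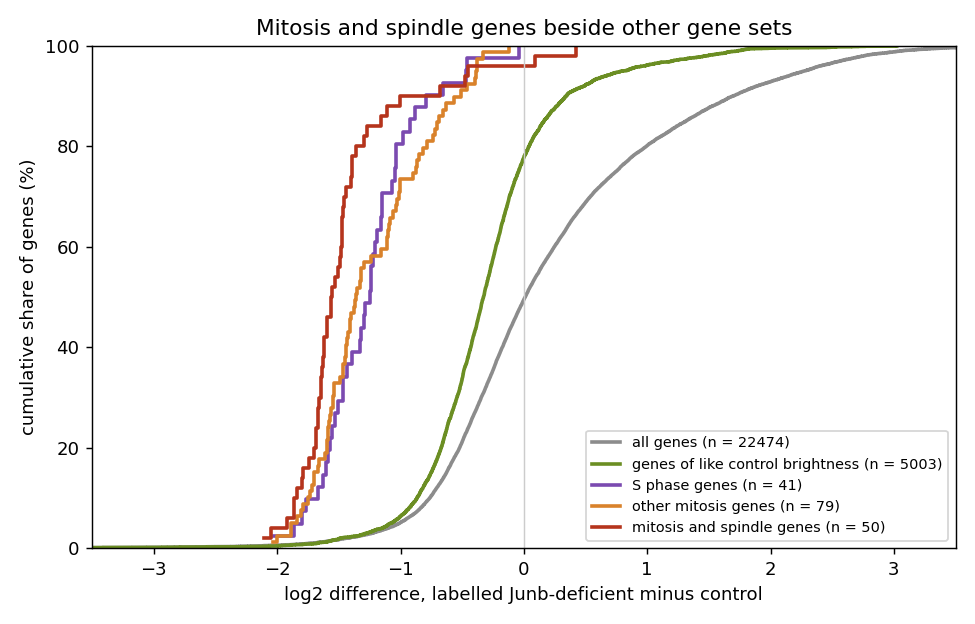
Cumulative share of genes (y axis, percent) at or below each log2 difference, labelled Junb-deficient minus control (x axis, drawn from -3.5 to 3.5), for the 50 mitosis and spindle genes, 79 other mitosis genes, 41 S phase genes, 5003 genes of like control brightness and all 22474 genes. The 3 cell division curves run left of the others, with medians of -1.56, -1.36 and -1.25 against -0.33 and 0.01.

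The controls differed from each other on the same genes. Control 1 was above control 2 for all 50, by a median of 0.79 log2 (1.73-fold) and by 0.09 to 1.24, where the median over all genes was 0.02 and over genes of like brightness 0.11. The arrays labelled Junb-deficient differed by a median of 0.07, and array 1 was the higher for 35 of the 50. The distance between genotypes thus depended on the control: the mean of the arrays labelled Junb-deficient was lower by a median of 1.95 log2 against control 1 (3.85-fold) and of 1.15 log2 against control 2 (2.22-fold). Against control 2 alone, both arrays labelled Junb-deficient were lower for 46 of the 50 genes. The same held for 9880 of all 22474 genes and for 3589 of the 5003 genes of like brightness. The median SE was 0.32 for the 50 genes and 0.20 for all genes. Per the file headers the 4 arrays lay on 1 slide, and the slide row was the same as the array number. Within a row the median difference between genotypes was -1.92 for the arrays numbered 1 and -1.18 for those numbered 2, and 48 of the 50 genes were lower in both rows. These 2 medians were 0.04 and -0.02 over all genes, and -0.37 and -0.29 over genes of like brightness. The part of the slide row in the gap between the controls was not tested.

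**Figure D3:**
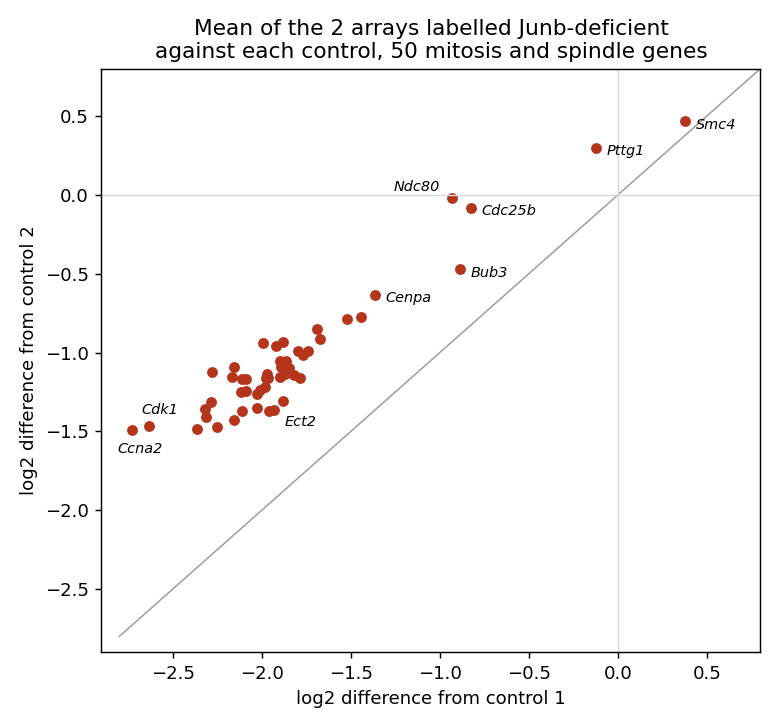
Mean log2 signal of the 2 arrays labelled Junb-deficient minus control 1 (x axis) and minus control 2 (y axis), 1 point per gene, with the line of equal differences. All 50 points lie above the line because control 1 was the higher control for each gene; Smc4 is the gene above 0 against both.

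The kinase that starts mitosis, its cyclins and its activators had a median difference of -1.47, and all 7 were lower. The largest differences of the 50 were here: Ccna2 (cyclin A2) at -2.11 ± 0.47 (SE) and Cdk1 at -2.05 ± 0.44, with limma's adjusted p of 0.0677 and 0.0653. Foxm1, the transcription factor of the G2 and M genes, had scaled signals of 7.23 and 4.69 in the controls against 2.10 and 2.09 on the other arrays. The groups did not overlap, and the difference was -1.47 ± 0.26 (limma's adjusted p = 0.0545). Ccnb1 (cyclin B1) had 11.0 and 5.91 against 2.42 and 2.04, a difference of -1.86 ± 0.36 (limma's adjusted p = 0.0596). Ccnb2 stood at -1.47 and Cdc25c, an activating phosphatase, at -1.39. Its relative Cdc25b had 1.40 and 0.838 in the controls against 0.842 and 0.745. Here control 2 lay between the other arrays, and the difference was -0.45 ± 0.31 (limma's adjusted p = 0.312).

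Among the mitotic kinases and the spindle checkpoint, all 8 genes were lower, with a median of -1.51. The groups overlapped for none of the 8, where 38.5% of all genes and 66.6% of those of like brightness were lower without overlap. Plk1 (polo-like kinase 1) stood at -1.80, Plk4, which drives centriole duplication, at -1.46, and the checkpoint genes Bub1, Bub1b and Mad2l1 at -1.55, -1.41 and -1.47. Ttk, the kinase that starts checkpoint signalling, had scaled signals of 1.49 and 0.874 in the controls against 0.397 and 0.347 (-1.62 ± 0.32, limma's adjusted p = 0.0600). Aurka, the kinase of the spindle poles, had 18.6 and 10.2 against 4.40 and 4.20 (-1.68 ± 0.34, limma's adjusted p = 0.0620). For both genes the lower control was more than 2-fold above the higher of the other arrays. Bub3, a checkpoint protein that binds BUB1 and BUBR1, was the least different, with 58.1 and 43.6 against 31.6 and 31.3. Its groups did not overlap either, and the difference was -0.68 ± 0.20 (limma's adjusted p = 0.0943).

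The chromosomal passenger complex corrects wrong attachments at the centromere and later acts at the midzone, and all 4 of its genes were lower, with a median of -1.45. Birc5 (survivin) had scaled signals of 79.7 and 46.4 in the controls against 16.6 and 16.9, a difference of -1.86 ± 0.31 that narrowly missed the threshold (limma's adjusted p = 0.0503). Cdca8 (borealin) had 26.4 and 15.8 against 7.57 and 6.60 (-1.53 ± 0.31, limma's adjusted p = 0.0618). Incenp, the scaffold of the complex, had 59.1 and 35.0 against 18.8 and 18.4 (-1.29 ± 0.30, limma's adjusted p = 0.0723). For these 3 genes the arrays labelled Junb-deficient were close to each other while the controls were spread. Aurkb, the kinase of the complex, was the member whose 2 arrays labelled Junb-deficient differed most, with 1.07 on array 1 and 1.62 on array 2, and its difference was -1.36.

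Of 4 genes of anaphase onset 3 were lower and 1 was level. Ube2c, the ubiquitin-conjugating enzyme of the anaphase-promoting complex, had scaled signals of 17.0 and 9.25 in the controls against 3.19 and 3.43 (-1.92 ± 0.35, limma's adjusted p = 0.0546). Cdc20, its activator, had 32.8 and 17.3 against 7.62 and 7.80 (-1.63 ± 0.36, limma's adjusted p = 0.0672). Espl1 (separase, the protease that cuts cohesin) stood at -1.64. Pttg1 encodes securin, the inhibitor of separase, and had 13.7 and 10.2 against 12.6 and 12.5. Its arrays labelled Junb-deficient lay between the controls, and the difference was 0.09 ± 0.20 (limma's adjusted p = 0.757).

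All 9 genes of the centromere and kinetochore were lower, with a median of -1.60. Spc25, a subunit of the NDC80 complex that holds microtubules, fell from 31.0 and 20.6 in the controls to 7.73 and 8.22 (-1.67 ± 0.25, limma's adjusted p = 0.0451). Cenpn, which reads the centromeric nucleosome, had 8.03 and 5.03 against 2.16 and 1.80 (-1.69 ± 0.29, limma's adjusted p = 0.0527). Of the same complex as Spc25, Nuf2 stood at -1.67 and Spc24 at -1.64. The remaining subunit, Ndc80, had 2.36 and 1.25 in the controls against 1.46 and 1.04. Ndc80 array 1 labelled Junb-deficient lay above control 2, so the groups overlapped, and the difference was -0.48 ± 0.40 (limma's adjusted p = 0.393). Cenpa, the histone that marks centromeres, stood at -1.0, and Cenpe, Cenpf and Cenpk between -1.49 and -1.60.

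The 6 spindle motors and assembly factors were all lower, with a median of -1.58. Their differences, from -1.84 to -1.44, spanned the narrowest range of the 8 roles. Kif11, the motor that pushes spindle poles apart, fell from 2.28 and 1.53 in the controls to 0.574 and 0.667 (-1.59 ± 0.26, limma's adjusted p = 0.0489). Kif15, a motor with an overlapping task, had 1.02 and 0.637 against 0.274 and 0.304 (-1.48 ± 0.28, limma's adjusted p = 0.0584). Kif4, the chromokinesin, had 2.23 and 1.14 against 0.540 and 0.640 (-1.44 ± 0.38, limma's adjusted p = 0.0818). In each of the 3 motors both arrays labelled Junb-deficient were below both controls, which held for 38.5% of all genes. Tpx2, which activates Aurora A on the spindle, stood at -1.84, Kif2c, a motor that takes microtubules apart, at -1.70, and Nusap1 at -1.56.

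The 6 genes of the central spindle and cytokinesis were all lower, with a median of -1.63. Ect2, the exchange factor that switches on RhoA at the cleavage furrow, had the smallest p of the 50. It fell from 3.18 and 2.15 in the controls to 0.857 and 0.814 (-1.65 ± 0.25, limma's adjusted p = 0.0444). Prc1, which bundles midzone microtubules, had 12.6 and 7.52 against 2.95 and 2.87 (-1.74 ± 0.30, limma's adjusted p = 0.0521). Racgap1, a subunit of centralspindlin, had 14.8 and 9.35 against 4.94 and 6.04 (-1.11 ± 0.30, limma's adjusted p = 0.0820). Racgap1 was the least different of the group, and its groups still did not overlap. Its partner in centralspindlin, Kif23, stood at -1.47, the midzone motor Kif20a at -1.66 and the actin-binding Anln at -1.62.

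Among 6 genes of chromosome structure 5 were lower and 1 was higher, with a median of -1.33. Top2a fell from 34.2 and 20.6 in the controls to 7.65 and 7.69 (-1.79 ± 0.30, limma's adjusted p = 0.0497). Mki67, which coats mitotic chromosomes and is the usual marker of dividing cells, had 61.7 and 35.1 against 16.3 and 15.2 (-1.57 ± 0.32, limma's adjusted p = 0.0633). Smc4, an ATPase subunit of condensin, was the exception, with 28.6 and 26.9 in the controls against 39.7 and 34.7. Both arrays labelled Junb-deficient were above both controls, and the difference of 0.42 ± 0.16 did not pass the test (limma's adjusted p = 0.132). The other condensin genes were lower: Smc2, the partner of SMC4, by 1.27 log2, Ncaph by 1.39 and Ncapd2 by 1.16.

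Genes that work as partners could be compared within each array, where the scaling cancels. In 5 pairs, chosen after the values were seen, the log2 ratio of the 2 genes was higher on both arrays labelled Junb-deficient than on both controls. The ratio of Smc4 to Smc2 was higher by 1.69 log2, or 3.23-fold (SD 0.53 in the controls and 0.17 on the other arrays, n = 2 each). That of Pttg1 to Espl1 was higher by 1.73 (SD 0.37 and 0.05). That of Ndc80 to Nuf2 was higher by 1.19 (SD 0.05 and 0.17), of Cdc25b to Cdc25c by 0.94 (SD 0.04 and 0.07), and of Bub3 to Bub1 by 0.87 (SD 0.29 and 0.04). The exact two-sided permutation test gave p = 0.333 for each pair, and 0.333 after adjustment over the 5, which is the smallest p that 2 arrays against 2 allow. The pairs were picked for these values, so they describe unequal differences and test nothing.

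Other probes of the same genes bore on these values. The array held 104 probes for the 50 genes, and 93 were above background on all 4 arrays, of which 86 were lower and 7 higher. Of 27 genes with more than 1 such probe, 25 had all of them on the same side of 0, and the median spread between a gene's probes was 0.28 log2. The exception of Smc4 was seen with all 3 of its probes, at 0.42, 0.48 and 0.53, while the 3 probes of Smc2 lay between -1.29 and -1.11. The brightest Smc4 probe lies at chr3:68838453-68838512 on mm9, as the array files give it. Both probes of Pttg1 were near 0, at 0.09 and 0.03. Ndc80 and Bub3 had 1 usable probe each. Probes disagreed for Nuf2, where a dim probe named by the transcript AK089939 stood at 1.25 against -1.67 for the brightest, and for Kif23, where a probe named by AK076271 stood at 0.24 against -1.47. A dimmer probe stood nearer 0 for Prc1 (-0.17 against -1.74), Kif2c (-0.37 against -1.70) and Cdc20 (-0.44 against -1.63), and in all 11 of the 27 genes had probes 0.5 log2 or more apart.

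**Figure D4:**
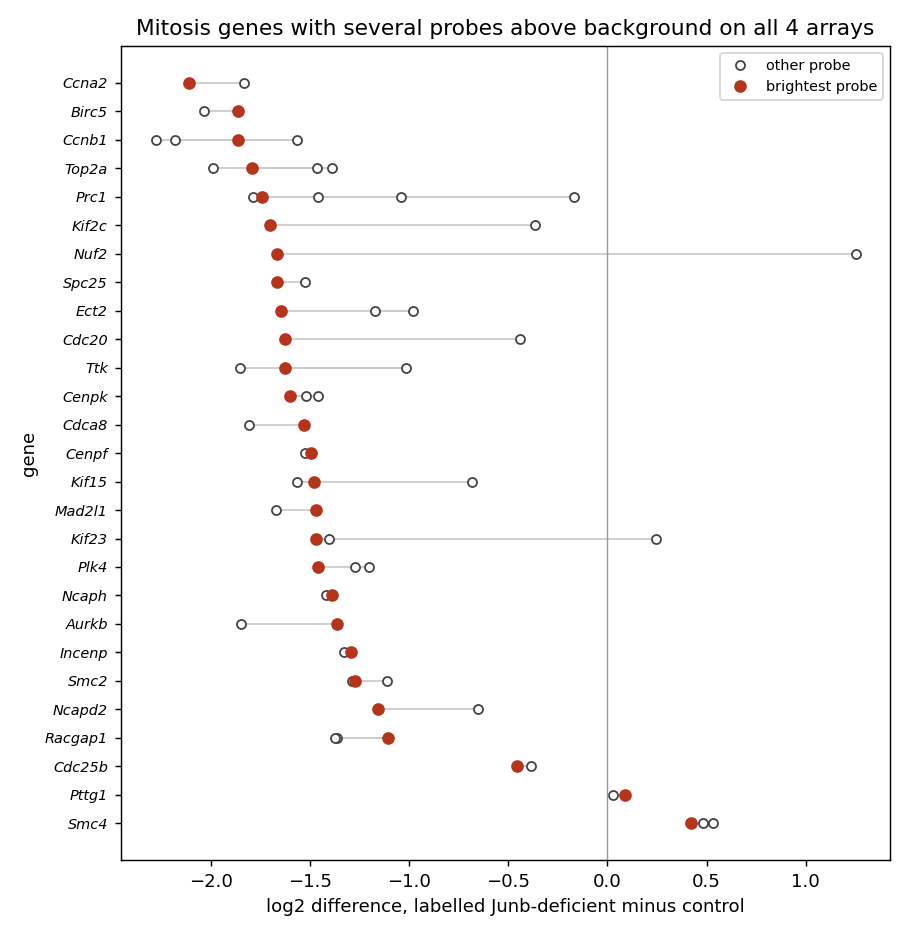
Log2 difference, labelled Junb-deficient minus control (x axis), of every probe above background on all 4 arrays, for the 27 genes with more than 1 such probe (y axis). Filled points are the brightest probe, used for the gene, and open points the others; the 3 Smc4 probes lie together right of 0, and Nuf2 and Kif23 each have 1 probe right of 0.

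Other genes of the pathway, from lists of related genes, were read the same way. Of 79 other mitosis genes all were lower, with a median of -1.36. At limma's adjusted p under 0.05, 5 of them fell, where 1.43% of all genes did. These were Sgo1, which guards centromeric cohesion (-1.84), the motor Kif18b (-1.89), Iqgap3 (-1.60), the kinetochore gene Nsl1 (-1.56) and the mitotic kinase Pbk (-2.0). Genes of S phase, which copy DNA before G2 and mitosis, were also lower in 41 of 41 cases, with a median of -1.25. Of these 41, 1 fell, where 1.43% of all genes did: Pola1, of DNA polymerase alpha (-1.53). Ccne2, among the 41, was well above background on both controls but on neither array labelled Junb-deficient. Ska2, among the 79, was not well above background on array 2 labelled Junb-deficient. Ccne2 and Ska2 entered the fit only through the controls, so the filter favoured a lower value. Both lists shared the gap between the controls, with a median of 0.79 each. The 13 core subunits of the anaphase-promoting complex were all lower, and with its co-activator Fzr1 (0.76) the 14 genes had a median of -0.45. None of the 14 passed limma's test (0, with 7 lower at an unadjusted p under 0.05, where 19.1% of all genes and 33.2% of those of like brightness were), and the smallest p-values were those of Anapc5 (-0.86) and Cdc16 (-0.56). Genes of the MuvB and DREAM complexes and of their partners, which regulate these promoters, were lower for 10 of 14 with a median of -0.21. None of these passed either (0, with 4 lower and 1 higher at an unadjusted p under 0.05, where 22.3% of all genes were higher). Tfdp1 stood at -1.31 and E2f4 at -0.65. Nfya, a subunit of NF-Y named after its value was seen, stood at 1.78 (limma's adjusted p = 0.0697). The other NF-Y subunits, Nfyb and Nfyc, stood at 0.30 and -0.22, with limma's adjusted p of 0.422 and 0.302.

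**Figure D5:**
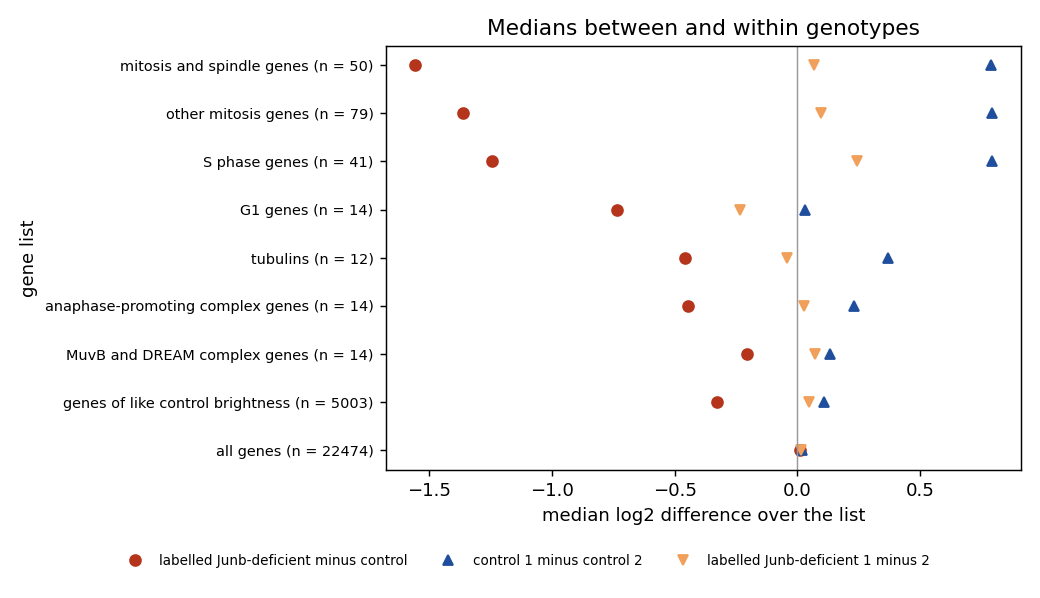
Median log2 difference over each gene list (y axis, with the number of genes measured) between genotypes (circles), between the controls (upward triangles) and between the arrays labelled Junb-deficient (downward triangles). The mitosis and S phase lists have the lowest medians between genotypes, -1.56, -1.36 and -1.25, and the same median of 0.79 between the controls.

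On the 4 arrays 59.3% to 66.3% of probes were well above background and no spot was saturated. The 75th percentile used for scaling was 151 and 145 in the controls against 119 and 101 on the arrays labelled Junb-deficient, in units of processed signal, while the median was 12.6 and 13.7 against 15.0 and 13.2. Over all genes 321 fell and 1580 rose, so that 83.1% of the calls were higher. Some of these genes entered the fit only through the arrays labelled Junb-deficient, where the filter favours a higher value. With only probes above background on all 4 arrays, 1259 genes were called and 75.7% of the calls were higher. With the main filter and arrays scaled to their median instead, every difference moved down by one amount and 21.0% of the calls were higher. Of the 50, 46 then passed the test as lower, where 33.1% of all genes did. The median of all genes moved from 0.01 to -0.52 with this scaling, and relative to it the members' median was -1.57 under both scalings. The label check on Junb was mixed. A bright Junb probe gave scaled signals of 64.7 and 62.7 in the controls against 8.82 on array 1 and 99.8 on array 2 labelled Junb-deficient, which goes against the label of array 2. A dim Junb probe gave 0.312 and 0.219 in the controls and was not well above background on the other arrays. The labels do not say which part of Junb is floxed, so whether either probe lies inside it is not known. A probe's place is the same for both arrays labelled Junb-deficient, and the cause of the gap between them was not tested. Leaving out array 2 labelled Junb-deficient gave a members' median of -1.52, and leaving out array 1 gave -1.61; no gene of the 50 then passed limma's test (0, with 28 and 29 at an unadjusted p under 0.05, where 22.0% and 25.1% of all genes were). T cell markers were present, 11 of 11 on all arrays, with summed scaled signals of 1065 and 1072 in the controls against 965 and 877. Of these 11 markers 6 were lower and 5 higher, and Thy1 (-0.98) and Cd2 (-1.33) fell (limma's adjusted p = 0.0418 and 0.0484). All 6 Treg cell markers were above background on every array, and 3 were lower and 3 higher. Ikzf2 (4.56) and Itgae (3.36) rose and Ctla4 (-1.47) fell, with limma's adjusted p of 0.0324, 0.0361 and 0.0479. Foxp3, the defining transcription factor, had 8.51 and 8.99 in the controls against 2.49 and 5.78 (-1.20 ± 0.46, limma's adjusted p = 0.133). Summed B cell markers were 4.0 and 1.72 against 8.23 and 5.63, with 6 of 8 above background on all arrays. All 7 in the fit were higher, and Ms4a1 (3.18) and Ebf1 (1.67) rose (limma's adjusted p = 0.0292 and 0.0479). Summed myeloid markers were 26.6 and 17.8 against 62.3 and 32.6, with 4 of 10 above background on all arrays. Most of this sum was Itgam, with 23.7 and 13.4 against 54.9 and 21.0 (limma's adjusted p = 0.290). Cd14, Lyz2, S100a8 and S100a9 were not well above background on control 2. Of 10 colon epithelium markers, 4 (Car1, Epcam, Krt18 and Lgals4) were above background on all arrays, and Cdh1, Krt20, Muc2 and Vil1 on none. Most of the sums, 2.50 and 3.44 against 3.45 and 4.03, was Lgals4 (1.78 and 2.71 against 2.68 and 3.17). Of 7 stroma markers that entered the fit 6 were higher, with a median of 1.14; their summed signal, 29.1 and 24.8 against 18.3 and 19.2, was nearly all Acta2, and without it the sums were 0.803 and 0.997 against 1.78 and 2.04. Among the 6 were Dcn and Col1a1, which were not well above background in either control. They entered the fit only through the arrays labelled Junb-deficient, so a higher value was set by the filter and their p-values are not given. Pdgfra and Pdgfrb were above background on no array. The part of these other cells in the differences of the 50 genes was not tested.

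The authors' deposited table of their own comparison listed 48 of the 50 genes as lower, with a median log2 difference of -1.29. There Kif11 alone had an adjusted p under 0.05 (0.0452), and Smc4 was listed at 0.79 with an adjusted p of 0.0675, all from the authors' deposited table.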

How the data were processed

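The RNA, labelled as that of in vitro differentiated Treg cells, was hybridised to 4 Agilent one-colour arrays, 2 labelled control and 2 labelled Junb-deficient. Per the file headers, the authors' scanner files hold a background-subtracted intensity for each spot (gProcessedSignal), from Agilent Feature Extraction 11.5.1.1, with probe positions on mm9. The authors also deposited a table of log2 signals with log2 differences and p-values; the sources used here do not give their normalization. The raw mean intensity and median background columns served only the background alternative.

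Control and outlier spots were dropped and spots of a probe averaged. Each array's log2 intensity was reduced by its 75th percentile. Probes were kept where 1 genotype or both had them well above background on its 2 arrays, and the brightest probe stood for a gene; 22474 genes were tested with limma 3.58.1 (R 4.3.3), with Benjamini-Hochberg adjustment and a call at 0.05. Symbols were updated through RefSeq (GRCm38.p6). Called members are given with the signal on each array, as are, per role, the 2 with the smallest p and the 1 nearest 0 or highest; from other lists, called genes or the 2 with the smallest p. The members, lists and rules were chosen with earlier results of these data known. The fit was tested on simulated data. With 2 arrays per genotype their number limits the precision. Alternatives covered scaling, background, filters, probes, names, limma's options, the array number and leaving out each array.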

Additional observations from a re-analysis of the deposited data

How the results depend on the processing

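The direction of the median held in all 14 alternative settings: the members' median was -2.09 with arrays scaled to the median, -1.41 after quantile normalization, -1.39 after normexp background correction, -1.29 on the authors' deposited log2 signals, and from -1.95 to -1.15 without 1 array (without control 2 and without control 1). The count of members called lower by limma was not stable. Against 4 of 50 (and 1901 of all genes), it was 46 (9413) scaled to the median, 40 (7224) after normexp, 39 (5035) with limma's trend and robust options, 0 (452) after quantile normalization, 1 (618) on the authors' signals, 0 (0) with no filter on dim probes and 0 to 0 (0 to 0) without each array in turn; 1259 genes were called when only probes above background on all 4 arrays were kept. At an unadjusted p under 0.05 stood 46 members after quantile normalization (32.4% of all genes), 45 with no filter (23.9%) and 28 to 47 without 1 array (22.0% to 36.2%). With the array number, which equals the slide row, as a replicate block, 41 members and 6847 genes were called; deviations of same-numbered arrays correlated at 0.50 (Pearson, across genes), and the labels do not say that a number pairs arrays, so with 2 pairs the numbers were not treated as pairing. The median of other mitosis genes was -1.90 scaled to the median, -0.94 after normexp and -1.76 to -0.96 without 1 array; that of S phase genes was -1.78 scaled to the median and from -1.68 to -0.91 without 1 array. Pttg1 changed side, to -0.45 scaled to the median, -0.0077 after normexp and -0.12 without control 2 (0.30 without control 1), as did Smc4, to -0.11 scaled to the median. The cause of these moves was not tested. A slide or scan block was not run, since all 4 arrays shared 1 slide and 1 scan time.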

Other observations

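Genes next to the mitotic program in the cell cycle were less uniform. Of 14 G1 genes measured, 11 were lower on the arrays labelled Junb-deficient, with a median log2 difference of -0.73. Control 1 was above control 2 for 8 of the 14. The G1 gene that fell at limma's adjusted p under 0.05 was Cdkn2d, an inhibitor of CDK4 and CDK6, from scaled signals of 12.2 and 12.0 in the controls to 6.46 and 6.68 (-0.88 ± 0.14, limma's adjusted p = 0.0476).

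Tubulins, the building blocks of the spindle and of the interphase cytoskeleton, were split: 7 of 12 were lower and 5 higher, with a median of -0.46. Tubb6 fell from 7.70 and 8.25 in the controls to 1.15 and 1.30 (-2.70 ± 0.16, limma's adjusted p = 0.0290), a larger difference than that of any of the 50 mitosis and spindle genes. Its higher control was control 2.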
